A study of Homo sapiens with 24 samples.

Results

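The 41 genes described here are interferon-stimulated genes, the set that cells switch on when type I or type III interferon binds its receptor. They were taken from a list of gene symbols and matched by Ensembl identifier, with no measured value in the choice rule. The list itself was drawn up with earlier results of these data known. All 41 were among the 37416 genes in the files, and all 41 passed the filter on low counts, in some cases through 1 line with high counts. They were measured by RNA sequencing in 4 established human lines that the series calls triple-negative breast cancer cells: MDAMB231, MDAMB468, BT549 and HCC1806. Each line was transduced with lentivirus carrying a short hairpin RNA against ADAR1 (the group labelled shADAR1) or a non-targeting hairpin (shNT), and then kept under puromycin (2 µg/ml) for 72 h. Control cells therefore carried the same infection and selection. Each of the 8 groups had 3 libraries labelled as biological replicates, 24 in all, and the 2 groups of a line are called its arms below. The sources used here do not say how the replicates were separated, so the p-values measure the spread between these libraries. They also give neither the hairpin sequence nor how many hairpins were used, and no library was treated with interferon.

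Interferon receptors activate the kinases JAK1 and TYK2, which phosphorylate STAT2. With IRF9 it takes part in a transcription factor complex that binds interferon-stimulated response elements in target promoters. The products restrict viruses at several steps, from entry through RNA sensing to protein synthesis. ADAR1, encoded by ADAR, edits adenosine to inosine in double-stranded RNA. Unedited RNA can be sensed by MDA5 and PKR, and loss of ADAR1 is known to raise interferon-stimulated genes in some cell types. Comparing the arms therefore addresses whether these genes rose when ADAR was lowered in the 4 lines, and the shNT arms give the level from which they started.

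The shared regulatory feature of the set is shown first, because the members' levels differed widely although many promoters hold the same element. The core of the interferon-stimulated response element, 2 copies of GAAA separated by any 2 bases, was searched on both strands, overlapping matches allowed, in windows from 250 bases before to 50 bases after each RefSeq start site (GRCh38.p14). It was found for 24 of the 33 members in the promoter table (72.7%), against 1195 of 27305 genes in the whole table (4.38%). Among other genes of the interferon pathway it was found for 21 of 53 (39.6%). MX2, OAS2, USP18, OASL, IFIT2, IRF7, IFITM2 and TRIM22 had no entry in the table. The 30-base windows below run 5′ to 3′ on the gene's strand, with the 10 matched bases in capitals. Where the capitals begin and end with TTTC, the same core is read from the other strand. They were picked to show canonical members and those whose values are given in full. A match is a description of the letters and was not tested as a binding site.
ISG15, chr1:1013380-1013409, plus strand: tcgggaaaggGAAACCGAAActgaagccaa
IFIT1, chr10:89392497-89392526, plus strand: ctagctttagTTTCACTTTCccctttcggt
IFIT5, chr10:89414554-89414583, plus strand: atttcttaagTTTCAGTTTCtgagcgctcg
OAS3, chr12:112938321-112938350, plus strand: agaaagaaacGAAACTGAAAgcagggaatt
MX1, chr21:41420559-41420588, plus strand: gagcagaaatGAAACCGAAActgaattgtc
BST2, chr19:17405735-17405764, minus strand: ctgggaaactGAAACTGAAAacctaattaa
EPSTI1, chr13:42992272-42992301, minus strand: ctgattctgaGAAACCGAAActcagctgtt
SAMD9, chr7:93118096-93118125, minus strand: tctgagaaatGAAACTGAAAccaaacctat
DTX3L, chr3:122564322-122564351, plus strand: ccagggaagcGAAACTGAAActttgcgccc
PARP14, chr3:122680800-122680829, plus strand: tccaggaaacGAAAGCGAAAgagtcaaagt
LGALS3BP, chr17:78979962-78979991, minus strand: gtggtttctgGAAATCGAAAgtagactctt
In these windows the core itself was identical in ISG15, MX1 and EPSTI1, and again in OAS3, BST2, SAMD9, DTX3L and, read from the other strand, IFIT5, while PARP14 and LGALS3BP had other letters at the free positions. The DTX3L window is also the window of PARP9, which is read from the opposite strand there, so the pair shared 1 element between divergent start sites.

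Library totals ran from 10370645 counts, in MDAMB231 shNT replicate 1, to 97218217. Levels are CPM, counts scaled to the library's total, after correction by the trimmed mean of M values (TMM), and fold changes are on the log2 scale. Differences were tested with edgeR's quasi-likelihood F test, with Benjamini-Hochberg adjustment over 21352 genes and a threshold of 0.05. ADAR was at 26.1%, 33.1%, 21.8% and 37.1% of its control level in BT549, HCC1806, MDAMB231 and MDAMB468, and the arms did not overlap in any line. Keratins and other epithelial markers summed to 4170 CPM or more in every HCC1806 and MDAMB468 shNT library and to at most 0.977 CPM in BT549 shNT, which instead had mesenchymal markers at 4191 CPM or more. In BT549 all 8 epithelial markers had values above 0 with the hairpin (median 2.13, none called), at sums of 0.912 to 2.16 CPM. In MDAMB231 the mesenchymal cadherin CDH2 rose from 2, 16 and 10 counts to 24, 30 and 28 (1.39, edgeR adjusted p 0.0386). The part of such shifts in the members' values was not tested. In bulk RNA, fewer cells that express a gene and less RNA per cell cannot be told apart.

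Before any effect of the hairpin, the lines differed strongly in interferon-stimulated genes. Of the 41 members, 40 differed among the shNT arms (edgeR joint F test over the 4 lines), where 85.9% of all genes tested also passed. The median member stood at 13.7 CPM in MDAMB231, 11.6 CPM in HCC1806, 4.49 CPM in MDAMB468 and 2.58 CPM in BT549. MDAMB231 held the highest level of 17 members and BT549 the lowest of 19. Between pairs of lines, 31 members differed between BT549 and HCC1806 (background 63.5%) and 34 between BT549 and MDAMB231 (56.5%). The remaining pairs gave 33 for BT549 and MDAMB468 (61%), 24 for HCC1806 and MDAMB231 (59%), 30 for HCC1806 and MDAMB468 (62.9%) and 33 for MDAMB231 and MDAMB468 (61.8%). The 24 of HCC1806 and MDAMB231 was the smallest count of the 6 pairs, and as a share of the members it was close to that of all genes.

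**Figure D1:**
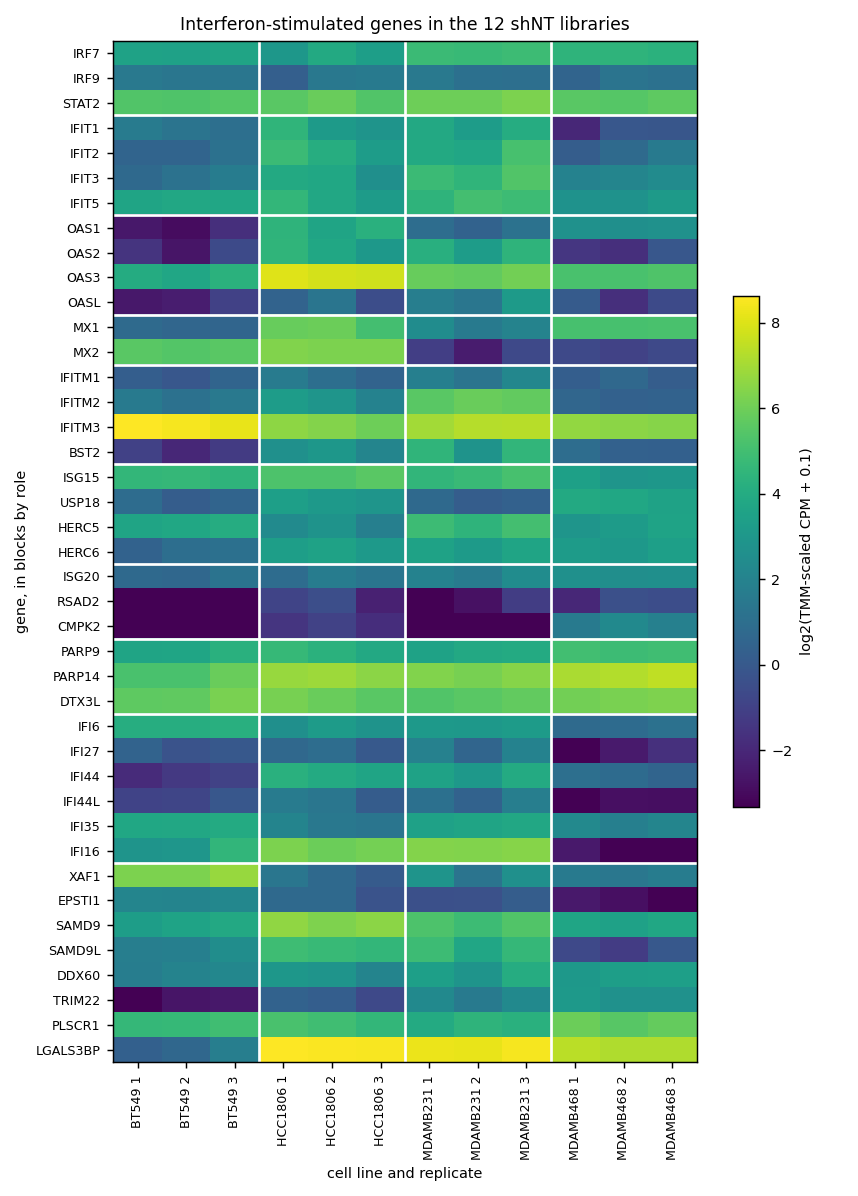
Level of the 41 members (rows, in blocks by role) in each of the 12 shNT libraries (columns, 3 replicates per line), as log2 of TMM-scaled CPM plus 0.1. Replicates of a line resemble each other more than they resemble other lines, and IFI16, MX2 and LGALS3BP run from the dark to the bright end of the scale between lines.

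The transcription factors of the pathway were the most even group. STAT2, a subunit of the interferon-activated complex, had means from 42.5 CPM in BT549 to 67.6 CPM in MDAMB231. IRF9, which gives that complex its DNA specificity, was the 1 member that did not pass between lines (edgeR adjusted p 0.656), with means of 1.92 to 2.58 CPM. The IRF9 counts are uncertain, because 1838 of its 3794 exon bases are shared with another gene on the same strand. IRF7, which amplifies type I interferon production, had 11.0 CPM in HCC1806 and 28.2 CPM in MDAMB231. The PARP9 and DTX3L pair, an ADP-ribosyltransferase and its ubiquitin ligase partner, was nearly as even. PARP9 ran from 14.0 to 30.6 CPM and DTX3L from 47.5 to 74.0 CPM, both lowest in MDAMB231 and highest in MDAMB468. PARP14, a related ADP-ribosyltransferase, ran from 44.3 CPM in BT549 to 156 CPM in MDAMB468.

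The IFIT genes, whose products bind foreign RNA ends and block its translation, were all highest in MDAMB231. IFIT1 had 13.7 ± 3.63 CPM there (SD, n = 3) and 12.8 ± 8.18 CPM in HCC1806, a difference within the spread (edgeR adjusted p 0.834). It was lower in BT549, at 2.42 ± 0.539 CPM, and lowest in MDAMB468, at 0.605 ± 0.393 CPM. IFIT2 and IFIT3 ran from 1.60 and 2.32 CPM in BT549 to 21.1 and 31.0 CPM in MDAMB231. IFIT5 varied least of the 4, between 7.51 and 28.0 CPM. IFIT1, IFIT2, IFIT3 and IFIT5 lie together on chromosome 10.

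The 2-5A synthetases, which make the messenger that activates RNase L, did not share a pattern although OAS1, OAS2 and OAS3 lie side by side on chromosome 12. OAS1 was at 0.0710, 0.0308 and 0.209 CPM in the shNT replicates 1, 2 and 3 of BT549. It reached 21.7, 12.6 and 19.2 CPM in HCC1806, 1.85, 1.25 and 2.17 CPM in MDAMB231, and 6.52, 6.12 and 6.53 CPM in MDAMB468. No library of any line overlapped those of another for OAS1. OAS2 was at 0.248, 0.0616 and 0.535 CPM in BT549 and at 0.265, 0.207 and 0.849 CPM in MDAMB468. It was at 22.4, 14.0 and 8.27 CPM in HCC1806 and 18.2, 9.53 and 21.6 CPM in MDAMB231. OAS2 therefore formed 2 levels, with neither the upper pair of lines (edgeR adjusted p 0.816) nor the lower pair (0.337) separated by the test. OAS3 was the most abundant synthetase per kilobase of gene model in every line, with 28.6 CPM per kb in HCC1806 against 1.99 CPM per kb in BT549. OASL, a relative without synthetase activity, stayed between 0.186 CPM in BT549 and 4.98 CPM in MDAMB231.

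MX1 and MX2, neighbouring genes on chromosome 21 that encode dynamin-like GTPases which trap viral nucleocapsids, had different line patterns. MX2 was at 47.2, 43.2 and 47.1 CPM in BT549, at 81.7, 78.1 and 76.0 CPM in HCC1806, and below 1 CPM in all shNT libraries of MDAMB231 and MDAMB468. MX1 had 51.3 ± 15.4 CPM in HCC1806, 35.9 ± 0.803 CPM in MDAMB468, 4.15 ± 1.32 CPM in MDAMB231 and 1.499 ± 0.148 CPM in BT549 (SD, n = 3). Per kilobase, MX2 was the higher of the 2 in BT549, at 3.51 against 0.174 CPM per kb. MX1 was the higher in MDAMB468, at 4.16 against 0.0377 CPM per kb. In HCC1806 they were at 5.95 (MX1) and 6.02 (MX2) CPM per kb.

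Among membrane proteins, IFITM3, which hinders fusion of enveloped viruses, was the most abundant member per kilobase in BT549 (258 CPM per kb), MDAMB231 (110 CPM per kb) and MDAMB468 (70.5 CPM per kb). In HCC1806 that place was held by LGALS3BP. IFITM2 was at 53.5 ± 6.22 CPM in MDAMB231 and at 1.29 to 6.95 CPM elsewhere. IFITM1 had 1.09 to 3.41 CPM. The values of the IFITM genes are uncertain, because IFITM1 and IFITM2 share exon sequence in the annotation on the same strand and the family is near-identical in parts. BST2, which tethers budding virions to the cell, ran from 0.290 CPM in BT549 to 17.7 CPM in MDAMB231.

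ISG15, a ubiquitin-like modifier, had 41.7 ± 4.52 CPM in HCC1806, 28.3 ± 6.17 CPM in MDAMB231, 23.2 ± 1.57 CPM in BT549 and 8.76 ± 2.07 CPM in MDAMB468 (SD, n = 3). MDAMB231 and BT549 were not separated (edgeR adjusted p 0.101). Its protease USP18, which also brakes signalling at the receptor, had a different order, with 13.6 CPM in MDAMB468, 8.89 CPM in HCC1806, 1.37 CPM in BT549 and 1.28 CPM in MDAMB231. The ligase HERC5 ran from 5.20 CPM in HCC1806 to 28.2 CPM in MDAMB231. HERC6 ran from 1.74 CPM in BT549 to 11.0 CPM in MDAMB231.

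The lowest members were RSAD2, whose product viperin makes a chain-terminating nucleotide, and its neighbour CMPK2, a mitochondrial nucleotide kinase. RSAD2 did not exceed a mean of 0.472 CPM in any line, and had 0 counts in all 3 BT549 shNT libraries. CMPK2 was at 2.88, 4.91 and 3.61 CPM in MDAMB468 and at 0.264, 0.416 and 0.193 CPM in HCC1806. No count fell on it in BT549 shNT or in any of the 6 libraries of MDAMB231. A count of 0 allows up to 3 counts over the group, or 0.0297 CPM in MDAMB231 shNT (counting error only). The exonuclease ISG20 was low in all lines, between 1.78 and 6.04 CPM.

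IFI16, a nuclear DNA sensor, had the widest range of the 41. It was at 83.9, 83.0 and 87.4 CPM in MDAMB231, at 76.0, 60.5 and 68.9 CPM in HCC1806 and at 7.15, 7.69 and 23.15 CPM in BT549. In MDAMB468 it had 2 counts in replicate 1 and 0 in the other shNT libraries. IFI44 and IFI44L, adjacent on chromosome 1, were both highest in MDAMB231 and HCC1806, but IFI44L was at 0.0256 CPM in MDAMB468, where IFI44 had 1.68 CPM. IFI6, a mitochondrial and endoplasmic reticulum protein, was highest in BT549 at 17.7 CPM and lowest in MDAMB468 at 1.82 CPM. IFI35 also was highest in BT549, at 14.4 CPM. IFI27 did not exceed 2.97 CPM.

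The remaining effectors included 3 of the widest ranges. LGALS3BP, a secreted glycoprotein, was at 395, 375 and 359 CPM in HCC1806, at 313, 303 and 349 CPM in MDAMB231 and at 167, 149 and 148 CPM in MDAMB468. In BT549 it was at 1.17, 1.48 and 3.35 CPM, with no overlap between any lines. TRIM22, a ubiquitin ligase, was at 8.83, 6.59 and 6.56 CPM in MDAMB468, at 5.08, 2.96 and 4.95 CPM in MDAMB231 and at 1.23, 1.10 and 0.521 CPM in HCC1806, and had at most 4 counts in a BT549 shNT library. EPSTI1 was at 4.21, 4.13 and 4.49 CPM in BT549 and at 1.58, 1.60 and 0.734 CPM in HCC1806. It was at 0.646, 0.668 and 1.04 CPM in MDAMB231 and had at most 2 counts in a MDAMB468 shNT library. XAF1, a pro-apoptotic protein, was at 88.0 CPM in BT549 and at 1.68 to 5.23 CPM in the other lines. SAMD9 and its neighbour SAMD9L, both inhibitors of translation, separated in MDAMB468, with 1.85 CPM per kb of SAMD9 and 0.0808 CPM per kb of SAMD9L. In HCC1806 they were at 13.3 and 3.72 CPM per kb. DDX60, a helicase linked to RNA sensing, ran from 3.93 to 11.5 CPM, and PLSCR1, a phospholipid scramblase that restricts entry, from 18.7 to 55.0 CPM.

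Between the arms of a line, 1 of these genes passed the threshold when replicate numbers were not used, MX2 in MDAMB231. That call was lost in some of the alternative fits given further on. Within replicate numbers, the blocked fit given further on called 6 of 41 in MDAMB231, against 11.4% of all genes, and 7 of 41 in the mean of the lines, against 13.2%. The counts that follow are without the block. In BT549, 0 of 41 members passed (edgeR), where 0.473% of all genes passed, and 1 member had an unadjusted p under 0.05. In HCC1806, 0 of 41 passed, against 0.0468% of all genes, and 0 had an unadjusted p under 0.05. In MDAMB231, 1 of 41 passed, against 2.01% of all genes, and 4 had an unadjusted p under 0.05. In MDAMB468, 0 of 41 passed, against 0.0375% of all genes, and 3 had an unadjusted p under 0.05. DESeq2 called 0 members in BT549 (1.4% of all genes), HCC1806 (0.197%) and MDAMB468 (0.197%), and 1, MX2, in MDAMB231 (3.8%). MX2 was also the 1 member that passed in the mean of the 4 lines, where 2.96% of all genes passed. DESeq2 also called 1 member in that mean, again MX2, against 4.94% of all genes. In the test of differences between the lines' changes, 0 of 41 members and 0.0234% of all genes passed by edgeR, 1 member (MX2) had an unadjusted p under 0.05, and DESeq2 called MX2 alone, against 0.585% of all genes.

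The median change of the 41 members on the log2 scale was 0.07 in BT549 and 0.05 in MDAMB468, 0.01 in HCC1806 and -0.13 in MDAMB231. Over all genes tested the medians were 0.01, 0.01, 0.00 and 0.00 in that order. Members above 0 numbered 25 in BT549, 26 in MDAMB468, 21 in HCC1806 and 10 in MDAMB231. MDAMB231 was thus the line in which most members had a value below 0. In its pairs 1 and 3 the medians were -0.17 and -0.07, with 28 and 27 members lower, while pair 2 was nearly balanced, with 19 higher, 21 lower and a median of -0.01. With RSAD2 and CMPK2 set to the lower bound that a count of 0 allows, the BT549 median was still 0.07. By role, all 6 IFI genes, all 3 transcription factors and the 3 genes of the PARP9, DTX3L and PARP14 group had values below 0 in MDAMB231, none of them past the threshold. In BT549 all 8 of the remaining effectors, such as SAMD9, XAF1 and DDX60, had values above 0, from 0.03 to 0.31, and again none passed.

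The precision of these values, taken from the fit without the replicate block, followed expression. Among members with a mean of 10 CPM or more in the higher arm of a line, the 95% interval of the log2 change lay wholly between a halving and a doubling for 16 of 17 in BT549, 20 of 23 in HCC1806, 22 of 25 in MDAMB231 and 13 of 13 in MDAMB468. Counting all 41, it did so for 26, 31, 26 and 27. The well expressed members gave the tightest statements. OAS3 changed by 0.04 (95% interval -0.25 to 0.33) in BT549, -0.00 (-0.28 to 0.28) in HCC1806, 0.04 (-0.24 to 0.33) in MDAMB231 and 0.00 (-0.28 to 0.29) in MDAMB468. For ISG15 the values were -0.13 (-0.44 to 0.18), 0.07 (-0.24 to 0.38), 0.21 (-0.10 to 0.52) and -0.01 (-0.34 to 0.31) in the same order, and for IFITM3 they were 0.07 (-0.23 to 0.36), -0.10 (-0.39 to 0.20), 0.06 (-0.24 to 0.35) and 0.12 (-0.18 to 0.42). For IFIT1, whose replicates spread more, the interval was -1.28 to 0.42 in MDAMB231, and in MDAMB468 it was -1.04 to 1.17. RSAD2 and CMPK2 were not at a depth that allows a statement in BT549, where shNT had 0 counts and shADAR1 6 and 4 counts, at least 1.57-fold and 1.05-fold higher than the limit of 3 counts over the group.

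**Figure D2:**
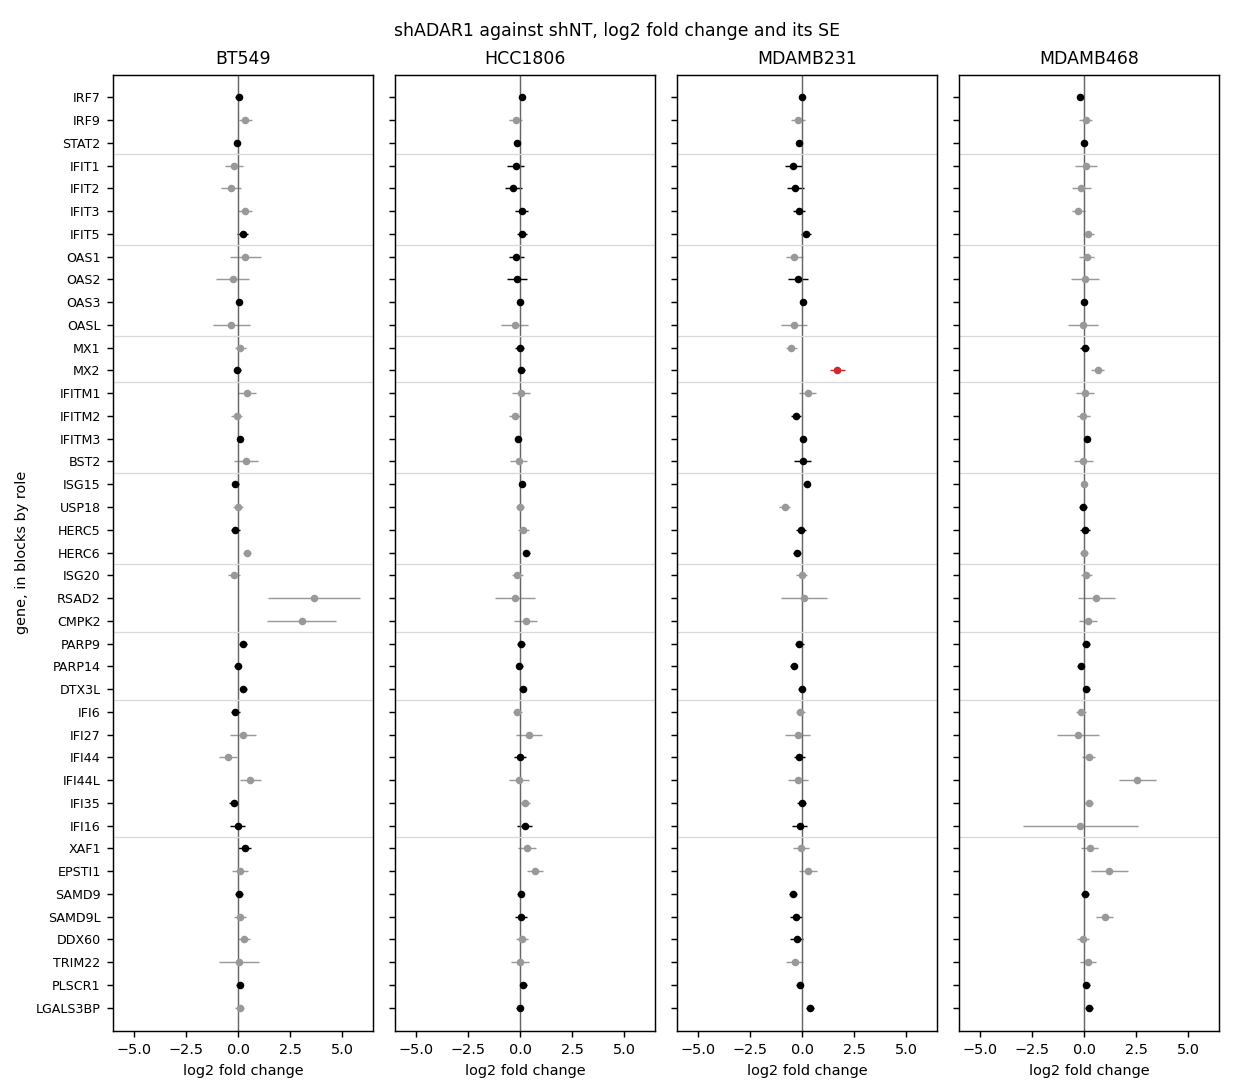
Log2 fold change of shADAR1 against shNT for the 41 members in each line, in blocks by role, with bars of 1 SE from the edgeR fit. Red marks an adjusted p under 0.05 (MX2 in MDAMB231), black a member with a mean of 10 CPM or more in the higher arm, grey a lower one. CMPK2 is left out in MDAMB231, where it had no counts, and the BT549 values of RSAD2 and CMPK2 depend on the prior count. Black points lie close to 0 in all 4 lines, between -0.43 and 0.38.

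MX2 rose in MDAMB231 from a very low level. It was at 0.369, 0.0890 and 0.530 CPM in shNT replicates 1, 2 and 3, from 4, 4 and 24 counts. In shADAR1 it was at 1.10, 0.615 and 1.45 CPM, from 23, 32 and 62 counts. All 3 shADAR1 libraries were above all 3 shNT libraries. The log2 change was 1.69 (SE 0.362, 95% interval 0.94 to 2.44, edgeR adjusted p 0.0103). In MDAMB468 MX2 was at 0.530, 0.415 and 0.531 CPM in shNT and 0.870, 0.602 and 0.874 CPM in shADAR1. Those arms did not overlap either, and the change of 0.66 (SE 0.314) did not pass.

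In the lines that express MX2 well the arms were level. BT549 had 47.2, 43.2 and 47.1 CPM in shNT and 45.0, 44.4 and 44.7 CPM in shADAR1. HCC1806 had 81.7, 78.1 and 76.0 CPM in shNT and 85.7, 80.3 and 80.3 CPM in shADAR1. The mean over the 4 lines, 0.59 (SE 0.137, edgeR adjusted p 0.0141), is therefore carried by counts of at most 62 per library. The call in MDAMB231 was lost without shADAR1 replicate 3 (log2 change 1.30, adjusted p 0.0926), without shNT replicate 2 (1.06, adjusted p 0.101), and when the 6 libraries of the line were fitted alone (1.70, adjusted p 0.396). Without shNT replicate 3 the change was 2.79 (adjusted p 0.001005) and without shADAR1 replicate 2 it was 2.04 (7.77e-04). With the replicate block the call held with any 1 pair of MDAMB231 left out, at 1.47 to 2.26 (adjusted p 1.57e-04 to 5.50e-04).

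Traces of other lines' transcripts were measured beside MX2, since HCC1806 expresses it strongly. The 50 genes with 20 CPM or more in HCC1806 and under 1 CPM in each other line summed, in MDAMB231 shNT, to 0.315%, 0.262% and 0.296% of their HCC1806 level. In MDAMB231 shADAR1 they summed to 0.407%, 0.329% and 0.413%, above all shNT libraries. The median over the single genes was 0%, 0.0987% and 0.117% in shNT and 0%, 0.115% and 0.157% in shADAR1, so those arms overlapped. MX2 itself stood at 0.460%, 0.111% and 0.660% of its HCC1806 level in shNT and at 1.37%, 0.766% and 1.81% in shADAR1. MX2 was above the summed level of those genes in all 3 shADAR1 libraries and in shNT replicates 1 and 3, and below it in shNT replicate 2. In MDAMB468, where MX2 was also higher without overlap, the 50 genes summed to 0.403% to 0.462% in shNT and 0.411% to 0.441% in shADAR1, and MX2 stood at 0.516% to 0.660% and 0.749% to 1.09%. The part of such traces in the MX2 result was not tested.

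Members whose arms did not overlap were few. Of the 8 counts that follow, only the 3 members in MDAMB468 made up a larger share than the background of all genes. Higher in shADAR1 without overlap were 1 member in BT549 (HERC6, background 8.24%), 0 in HCC1806 (4.38%), 2 in MDAMB231 (MX2 and LGALS3BP, 7.19%) and 3 in MDAMB468 (MX2, LGALS3BP and ISG20, 6.69%). Lower without overlap were 0 in BT549 (6.43%), 0 in HCC1806 (3.2%), 1 in MDAMB231 (USP18, 7.01%) and 1 in MDAMB468 (IRF7, 4.3%). MX2 and LGALS3BP did so in 2 lines (3.91% of all genes), no member was lower without overlap in 2 or more (3.43%), and none did either in 3 or more (0.642% higher, 1.12% lower).

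Replicate numbers were shared between the arms, and libraries with the same number deviated together from their group means over all genes. The lowest correlation, 0.0651, was that of replicate 3 in MDAMB468. A fit that compares the arms within each replicate number called more genes in all 4 lines, and more members in each line but HCC1806. In BT549 it called 1 of 41, DTX3L, against 5.14% of all genes, and in HCC1806 0 of 41 against 2.1%. In MDAMB468, where the numbers were not read as pairs, it called 1 against 1.66%. In MDAMB231 it called 6 of 41 (14.6% of members) against 11.4% of all genes. The genes of this paragraph and the following ones were singled out after their values were seen. Higher were MX2, at 1.73, and LGALS3BP, at 0.38. Lower were USP18, at -0.87, SAMD9, at -0.41, PARP14, at -0.40, and IFITM2, at -0.31. So within replicate pairs 4 of the 41 members were called lower in MDAMB231, against 6.33% of all genes, and 2 of the 41 higher, against 5.09%.

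LGALS3BP was at 313, 303 and 349 CPM in MDAMB231 shNT and 435, 391 and 427 CPM in shADAR1, with no overlap. Its change was 0.38 (SE 0.183), with an edgeR adjusted p of 0.428 without the block and 6.67e-04 with it. In MDAMB468 the same gene was at 167, 149 and 148 CPM in shNT and 187, 173 and 182 CPM in shADAR1, a change of 0.22 (SE 0.183, adjusted p 1). HCC1806, with the highest level, had a change of -0.03 (95% interval -0.40 to 0.35).

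USP18 went the other way in MDAMB231, from 1.57, 1.05 and 1.22 CPM in shNT to 0.958, 0.577 and 0.609 CPM in shADAR1, again with no overlap. The counts behind it were 17 to 55 per shNT library and 20 to 30 per shADAR1 library. The change was -0.84 (SE 0.266), with an edgeR adjusted p of 0.134 without the block and 0.0221 with it. In the line that expresses USP18 most, MDAMB468, the change lay within overlapping arms (15.3, 13.9 and 11.6 CPM in shNT, 11.8, 13.6 and 14.3 CPM in shADAR1).

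SAMD9 and PARP14 fell within each of the 3 pairs of MDAMB231. SAMD9 was at 38.9, 29.02 and 41.2 CPM in shNT and 24.2, 23.7 and 32.9 CPM in shADAR1, changes of -0.69, -0.29 and -0.32 in pairs 1, 2 and 3. PARP14 was at 83.2, 72.3 and 88.0 CPM in shNT and 51.3, 56.5 and 76.8 CPM in shADAR1, changes of -0.70, -0.35 and -0.20. For both genes the arms overlapped when pairs were ignored, and the adjusted p went from 0.362 to 0.00284 for SAMD9 and from 0.360 to 0.00169 for PARP14 with the block (edgeR). DTX3L rose within each pair of BT549, from 50.3, 52.4 and 73.8 CPM in shNT to 63.7, 65.2 and 81.5 CPM in shADAR1, a blocked change of 0.27 (adjusted p 0.00965). With 1 replicate pair left out in turn, MX2, PARP14 and LGALS3BP were called in MDAMB231 in all 3 such blocked fits, and the line's member count ran from 3 to 6. BT549 gave 0 to 2 members in the same way.

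In the mean of the 4 lines the block called 7 members (17.1%), against 13.2% of all genes. The block used replicate numbers in every line, also in MDAMB468, where they were not read as pairs. This holds for the mean and for the test of differences between lines. MX2 (0.60), IFI44L (0.75), IFIT5 (0.17), LGALS3BP (0.17) and DTX3L (0.12) were higher, where 7.25% of all genes were, and IFIT2 (-0.26) and PARP14 (-0.15) were lower, where 5.96% were. Apart from MX2 and IFI44L these are shifts of at most 0.26, in both directions. IFI44L in MDAMB468 changed by 2.56 (SE 0.899, edgeR adjusted p 1) at a shNT mean of 0.0256 CPM. In the test of differences between lines the block called 2 members, MX2 and SAMD9L, against 4.69% of all genes. SAMD9L was at 0.530, 0.332 and 0.867 CPM in MDAMB468 shNT and at 0.908, 0.826 and 1.69 CPM in shADAR1, where the arms overlap. Its change of 0.99 (SE 0.397) did not pass without the block (edgeR adjusted p 1), and in HCC1806 it was at 23.7 to 29.6 CPM in shNT and 25.8 to 28.9 CPM in shADAR1.

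**Figure D3:**
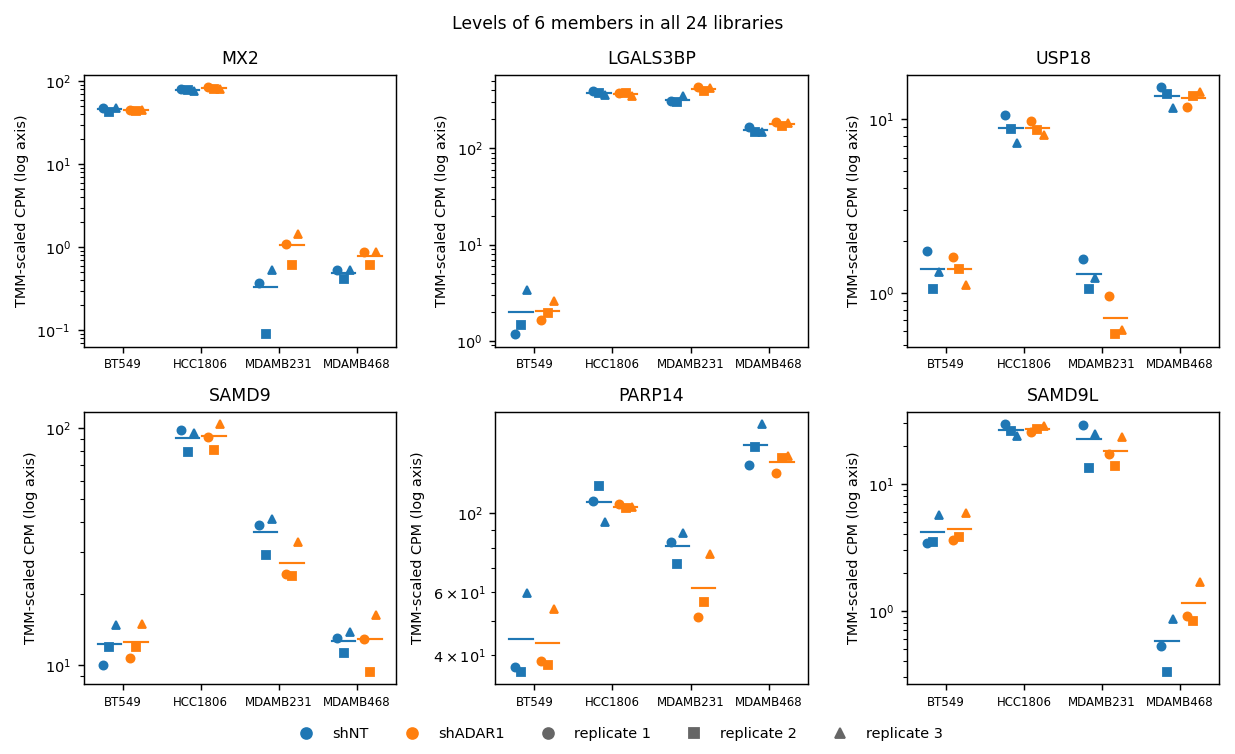
TMM-scaled CPM (log axis, a separate scale for each gene) of MX2, LGALS3BP, USP18, SAMD9, PARP14 and SAMD9L in all 24 libraries, with shNT in blue, shADAR1 in orange, a symbol for each replicate number and a line at the group mean. The arms separate in MDAMB231 for MX2, LGALS3BP and USP18 and overlap there for SAMD9, PARP14 and SAMD9L.

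The members moved together with the replicate number in both arms alike, most clearly in 3 of the lines. For each library and gene the deviation from the mean of its own group was taken on the log2 CPM scale. In BT549 replicate 3 the median deviation of the members was 0.23 in shNT and 0.23 in shADAR1, and 25 of the 41 were highest in replicate 3 in both arms, against 18.4% of all genes. HCC1806 went the other way. Its replicate 3 had medians of -0.33 in shNT and -0.29 in shADAR1, and 28 of 41 members were lowest there in both arms, against 19.2% of all genes. Replicates 1 and 2 of BT549 had medians of -0.14 to -0.07 over both arms, near the size of the median change with the hairpin, and those of HCC1806 had 0.04 to 0.25. In MDAMB231, replicate 3 had medians of 0.22 and 0.29 with 25 members highest in both arms, against 14.3% of all genes. Replicate 2 of MDAMB231 had medians of -0.31 and -0.15 with 20 members lowest, against 15.7%, and replicate 1 had medians of -0.00 and -0.10. In MDAMB468 the medians were smaller, at 0.09 and 0.08 in replicate 3, with 15 members highest there in both arms, against 15.3% of all genes. Its replicate 2 had medians of -0.06 and -0.10, with 15 members lowest in both arms, against 14.1%. The median deviation over all genes in the 24 libraries stayed between -0.06 and 0.03.

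The genes that moved with the replicate number differed between lines. In BT549 replicate 3, IFI16 was at 23.15 CPM in shNT and 21.6 CPM in shADAR1, while replicates 1 and 2 had 7.15 to 7.94 CPM in either arm. In HCC1806 the IFIT genes led among the better expressed members. IFIT1 was at 22.2, 9.07 and 7.13 CPM in shNT and at 17.6, 8.99 and 6.42 CPM in shADAR1, the same order in both arms. In MDAMB231 BST2 was at 22.8, 6.83 and 23.5 CPM in shNT and 24.2, 7.61 and 22.0 CPM in shADAR1, with replicate 2 low in both. OAS2 moved with the number in all 4 lines. Its shNT deviations were 1.16 in BT549 replicate 3, -0.73 in HCC1806 replicate 3 and -0.70 in MDAMB231 replicate 2. In MDAMB468 replicate 3 it deviated by 1.13 in shNT and 0.38 in shADAR1. The BT549 value rests on few counts, 14, 4 and 23 in its shNT libraries. So does the MDAMB468 value, with 7, 10 and 48. Across the 41 genes, the deviations of same-numbered libraries of the 2 arms correlated with r of 0.30 to 0.77 in BT549, HCC1806 and MDAMB231 and of -0.28 to 0.25 in MDAMB468, a description over genes that share their libraries and are not independent.

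**Figure D4:**
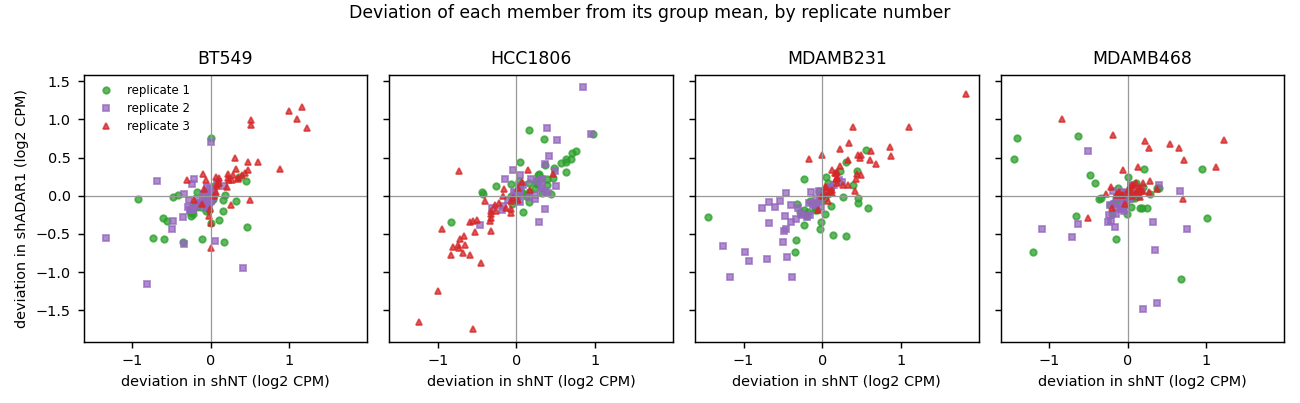
Deviation of each member from its group mean in shNT (horizontal axis) and in the shADAR1 library with the same replicate number (vertical axis), both in log2 CPM, with 1 panel per line and a symbol for each replicate number. Red triangles (replicate 3) lie mostly up and right in BT549 and MDAMB231 and down and left in HCC1806, whereas MDAMB468 shows no such diagonal.

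A further list of interferon-stimulated genes, among them GBP1, TAP1, PARP12 and TRIM25, had 27 members tested. Of these, 16 were lowest in replicate 3 of HCC1806 in both arms, against 19.2% of all genes, with medians of -0.22 and -0.18. In MDAMB231 replicate 3, 11 of the 27 were highest in both arms, against 14.3% of all genes (medians 0.12 and 0.09). BT549 replicate 3 was nearer to the share of all genes, with 7 of 27 highest in both arms against 18.4% (medians 0.07 and 0.01). Whether culture, handling or library preparation moved with these numbers was not tested.

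The rest of the pathway gave a similar picture. Of 70 further genes, 61 were tested, and edgeR called 0 of them in BT549, HCC1806 and MDAMB468, where 4, 0 and 2 had an unadjusted p under 0.05. The shares of all genes called there were 0.473%, 0.0468% and 0.0375%. In MDAMB231 edgeR called 1 (2.01% of all genes) and in the mean of the lines 1 (2.96%), lower in both cases. There 8 and 5 had an unadjusted p under 0.05. DESeq2 called 1, 0, 4 and 0 in BT549, HCC1806, MDAMB231 and MDAMB468, all of them lower. All-gene shares by DESeq2 were 1.4%, 0.197%, 3.8% and 0.197%. The gene called was MAVS in both edgeR calls and in BT549 with DESeq2. MAVS, the mitochondrial adaptor of the RNA sensors MDA5 and RIG-I, was lower in MDAMB231 at -0.34 (SE 0.0907, edgeR adjusted p 0.0484) and in the mean of the lines at -0.19 (SE 0.0453, adjusted p 0.0200). With the replicate block, calls went both ways. In MDAMB231, 1 of the 61 was higher (ZNFX1; 5.09% of all genes were) and 5 were lower (6.33%), among them MAVS, the DNA-sensing adaptor STING1 and the helicase HELZ2. In BT549, 2 were lower (MAVS and HELZ2) and 0 higher, against 5.14% of all genes in either direction. In HCC1806 the transcription factor IRF1 was higher (2.1%), and in MDAMB468 the signalling inhibitor SOCS3 and the GTPase GBP2 were higher (1.66%). In the mean of the lines 3 were higher (IRF1, GBP2 and ZNFX1, against 7.25%) and 4 lower (MAVS, IKBKE, STING1 and HELZ2, against 5.96%). The medians of the 6 receptor genes were 0.06, -0.02, 0.02 and 0.07, and those of the 11 sensors and adaptors tested were -0.15, -0.01, -0.19 and -0.06, in BT549, HCC1806, MDAMB231 and MDAMB468.

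Transcripts of the interferons themselves were scarce in every library. IFNB1, the type I interferon that most cell types can make, had 13 counts over all 24 libraries and at most 4 in 1 library. IFNA1 had 29 counts in all, IFNA2 7, IFNW1 4, IFNG 1, and the type III genes IFNL1 and IFNL2 had 21 and 52. IFNL3 reached 484 counts over 24 libraries, IFNE 604 and IFNK 234, and none of the 3 passed in any line. The leukocyte marker list, included because such cells can make interferon, summed to 5.45 to 100 CPM in shNT and 5.40 to 97.6 CPM in shADAR1, most of it from CD68, which was at 91.0 ± 6.97 CPM in MDAMB231 shNT (SD, n = 3).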

How the data were processed

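The authors deposited 1 table per library with, per the file headers, a whole-number read count for each gene, a CPM value and an RPKM value. CPM equalled the count over the library's total, and RPKM equalled CPM per kilobase of the listed length. Only the deposited counts were tested. Tools named in the submitters' processing notes include STAR and featureCounts. Genome build and use of strand are not given in the sources used here. Of the genes, 34265 were in GENCODE 29 and 31354 had the same start and end, and 33972 were named from a table of symbols.

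Counts were filtered with filterByExpr over the 8 groups (21352 genes kept), scaled by TMM (factors 0.924 to 1.12) and fitted with edgeR 4.0.16 in R 4.3.3, with 1 coefficient for each of the 8 groups. Tests were 2-sided quasi-likelihood F tests with Benjamini-Hochberg adjustment over all genes at 0.05. SE is the log2 change over the square root of F, and intervals are at 95% with the fit's degrees of freedom. Deviations used log2 CPM with a prior count of 2. The fit was tested on simulated data, with changes set only in genes with an average log2 CPM above 2. Changes in genes below that average were not simulated. No 2 replicates of a group agreed within sampling noise (smallest chi-square per degree of freedom over genes 11.8), so all 24 libraries were kept. Depth limits genes below about 1 CPM, as the intervals show.

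Correlations of deviations between same-numbered arms over all genes tested were 0.139, 0.158 and 0.25 in BT549, 0.242, 0.332 and 0.443 in HCC1806, and 0.204, 0.348 and 0.149 in MDAMB231, so numbers were read as pairs there. In MDAMB468 they were 0.165, 0.166 and 0.0651, against at most 0.0392 between different numbers. Those of replicates 1 and 2 were within the range of BT549. Numbers were not read as pairs in MDAMB468, although they may mark pairs there too. Alternatives were DESeq2 1.42.0, RLE scaling, other count filters, the replicate block, fits of 1 line or of the shNT arms alone, and leaving out each library.

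Members and lists were chosen with earlier results of these data known. Values in every library are given for members past the threshold, members whose arms separate the same way in 3 or more lines (0), and the 8 members with the widest range between shNT means among those with at least 1 CPM in the highest line. Overlapping genes (IFITM1 with IFITM2, PARP9 with DTX3L, RSAD2 with CMPK2, and IFITM3, IRF9 and TRIM22 with others) have uncertain counts.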

Additional observations from a re-analysis of the deposited data

How the results depend on the processing

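Counts of called members were recomputed under each alternative, and no called member changed sign. With at least 10 counts required in every library, 28 members were tested, MX2 was not among them, and 0 members were called in MDAMB231 and in the mean of the lines, with 20 called between BT549 and HCC1806 in shNT. In the test of differences between lines, DESeq2 called 1 member. When each line's 6 libraries were fitted alone, MDAMB231 gave 0. With the replicate number as a block, 1 member was called in BT549, 6 in MDAMB231, 1 in MDAMB468 (SAMD9L, a change of 1.01 with adjusted p 0.0388), 7 in the mean of the lines and 2 in the test of differences. The block changed no call in HCC1806. With the block and 1 replicate pair left out in turn, an alternative added after seeing the data, counts ran from 0 to 2 in BT549, 3 to 6 in MDAMB231 (5 without pair 2), 0 in HCC1806 and MDAMB468, 3 to 8 in the mean (5 without pair 1 of BT549 or of MDAMB468) and 1 to 4 in the test of differences. Leaving out each library in turn gave 0 to 1 members in MDAMB231, with the call lost without shADAR1 replicate 3 or shNT replicate 2, and 1 to 2 in the mean of the lines. The second, without BT549 shNT replicate 3, was LGALS3BP, at 0.30 with adjusted p 0.00377. The remaining counts kept within 1.5 times their value in those fits, with 39 to 40 members differing between lines in shNT. RLE scaling and no filter on low counts moved no count beyond that. Members below about 1 CPM, such as RSAD2, CMPK2, IFI44L in MDAMB468 and MX2 in MDAMB231 and MDAMB468, rest on few counts. The causes of these shifts were not tested, apart from the fewer genes or libraries that each alternative uses.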
